A study of Mus musculus with 6 samples.

Results

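The 31 genes described here are mouse genes of cholesterol synthesis, its control and cholesterol traffic, taken by symbol from a list. They comprised 20 enzymes from acetyl-CoA to cholesterol, 5 regulators of sterol regulatory element binding protein (SREBP) and 6 genes of cholesterol uptake, transport, export and storage. All 31 were among the 17577 genes listed in each library. The symbols, and no measured value, decide membership, although the list was drawn up with earlier results of these data known.

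RNA of germinal vesicle (GV) oocytes was sequenced in 6 libraries, 3 of *Bnc1*tr/tr and 3 of wild-type (WT) mice, at 12 weeks of age on the C57BL/6 J strain. *Bnc1*tr is a frameshift allele that truncates basonuclin 1, a zinc finger protein of germ cells and keratinocytes. It was homozygous in the whole animal, so that follicle cells carried it too. By the study's methods, oocytes were punctured from antral follicles after pregnant mare serum gonadotropin, and a single oocyte was used per Smart-seq2 reaction, which amplifies polyadenylated RNA. The labels do not tie libraries to animals, so p-values measure the spread between these samples. *Bnc1* itself was at 9.04, 6.51 and 5.83 FPKM (fragments per kilobase of transcript, scaled to library size) in *Bnc1*tr/tr replicates 1 to 3 and at 13.17, 12.54 and 16.23 FPKM in the WT replicates, a log2 fold change of -0.89 ± 0.20 (SE, limma adjusted p = 0.0090).

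Cholesterol is built from acetyl-CoA through mevalonate, isoprenoid diphosphates, squalene and lanosterol. Transcription of most enzymes is driven by SREBP, which SCAP carries from the endoplasmic reticulum for cleavage when sterols are low and which INSIG proteins hold back when sterols are high. Mouse oocytes are known to make little cholesterol themselves and to depend on the surrounding cumulus cells for it. The sterol made by CYP51, a lanosterol demethylase, is the follicular fluid meiosis-activating sterol, so the late steps of the pathway have a long history in oocyte research.

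To show the sequence before the start sites of genes whose level the results turn on, the 250 bases upstream were read from RefSeq on GRCm38.p6. An entry was held for 25 of the 31 genes, with 33 promoters. *Ebp* and *Soat1* are shown because they led the changed genes of at least 5 FPKM with an entry by fold change, together with *Tm7sf2*. The last is not shown because all 250 bases of its window lie in annotated exons of *Tm7sf2* and *Vps51*. *Idi1*, next in that order with a log2 fold change of 0.98, is not shown either. *Hmgcs1* was chosen after its promoter had been searched, as the only one of the 25 genes with an entry whose window held the SREBP-type letters TCACNCCAC. The other genes of the list could not be searched. Capitals mark matches, on either strand, to that motif, to the CCAAT box and to the GC box, whose letters were GGGCGG. A match on the other strand appears as its reverse complement, and no match overlapped another. The window of *Ebp* is chrX:8193513-8193762 on the minus strand, that of *Soat1* is chr1:156474329-156474578 on the minus strand and that of *Hmgcs1* is chr13:119690101-119690350 on the plus strand, each written 5′ to 3′. In GENCODE M21 the windows of *Ebp* and *Hmgcs1* overlap no gene, and the last 3 bases of the *Soat1* window are exonic.
Ebp: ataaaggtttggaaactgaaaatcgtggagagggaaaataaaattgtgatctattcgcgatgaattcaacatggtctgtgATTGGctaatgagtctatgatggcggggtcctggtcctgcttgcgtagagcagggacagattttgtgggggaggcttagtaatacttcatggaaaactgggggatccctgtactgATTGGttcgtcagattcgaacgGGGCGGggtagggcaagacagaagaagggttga
Soat1: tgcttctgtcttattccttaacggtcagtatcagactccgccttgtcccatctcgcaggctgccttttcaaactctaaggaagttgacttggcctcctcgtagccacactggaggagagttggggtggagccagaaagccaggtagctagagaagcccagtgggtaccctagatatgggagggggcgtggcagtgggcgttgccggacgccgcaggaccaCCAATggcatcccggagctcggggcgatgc
Hmgcs1: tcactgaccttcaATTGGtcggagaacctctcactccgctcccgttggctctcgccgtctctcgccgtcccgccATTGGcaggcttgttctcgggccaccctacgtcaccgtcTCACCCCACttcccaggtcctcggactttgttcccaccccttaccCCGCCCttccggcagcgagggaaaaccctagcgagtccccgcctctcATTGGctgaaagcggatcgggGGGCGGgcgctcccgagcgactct

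The *Hmgcs1* match reads TCACCCCAC and lies 128 bases before the RefSeq start. The bases just after that start were not found in a GENCODE M21 transcript of *Hmgcs1*, unlike those of *Ebp* and *Soat1*. The distance therefore depends on the start used. Those letters with any base at N occurred in 1.05% of all 32851 promoters of this length and in 1 of the 33 promoters of the list. CCAAT occurred in 33.8% of all promoters and in 69.7% of the 33, and GGGCGG in 32.7% and 75.8%. Counted by gene, where several genes have more than 1 promoter, CCAAT was found for 11 of 11 changed genes and 11 of 14 others, and GGGCGG for 9 of 11 and 13 of 14. These matches describe letters in the windows and nothing about binding.

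To ask which cholesterol genes differed between the genotypes, log2(FPKM + 1) was compared by limma over the 10560 genes that averaged 1 FPKM or more. A gene was called changed at an adjusted p under 0.05 with a log2 fold change over 0.5 in size. Of the 31 genes, 26 were tested. In *Bnc1*tr/tr oocytes 13 were higher, 1 was lower and 12 were not called. The changed share was 53.8%, against 31.8% of all genes tested. Higher calls made up 24.1% and lower calls 7.68% of all genes tested. The median log2 fold change was 0.64 over the 26 genes and 0.15 over all genes tested. Groups did not overlap for 15 of the 26 genes, against 46.8% of all genes tested.

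By role, the largest increases were in late enzymes, where *Ebp* was 5.03 times and *Tm7sf2* 4.6 times the WT mean, and in the sterol carrier gene *Stard4*, at 3.27 times. *Fdft1*, which encodes squalene synthase at the entry to the sterol branch, was the lower gene, at 0.472 times the WT mean. The regulators of SREBP, of which 4 were tested, held no called gene.

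**Figure D1:**
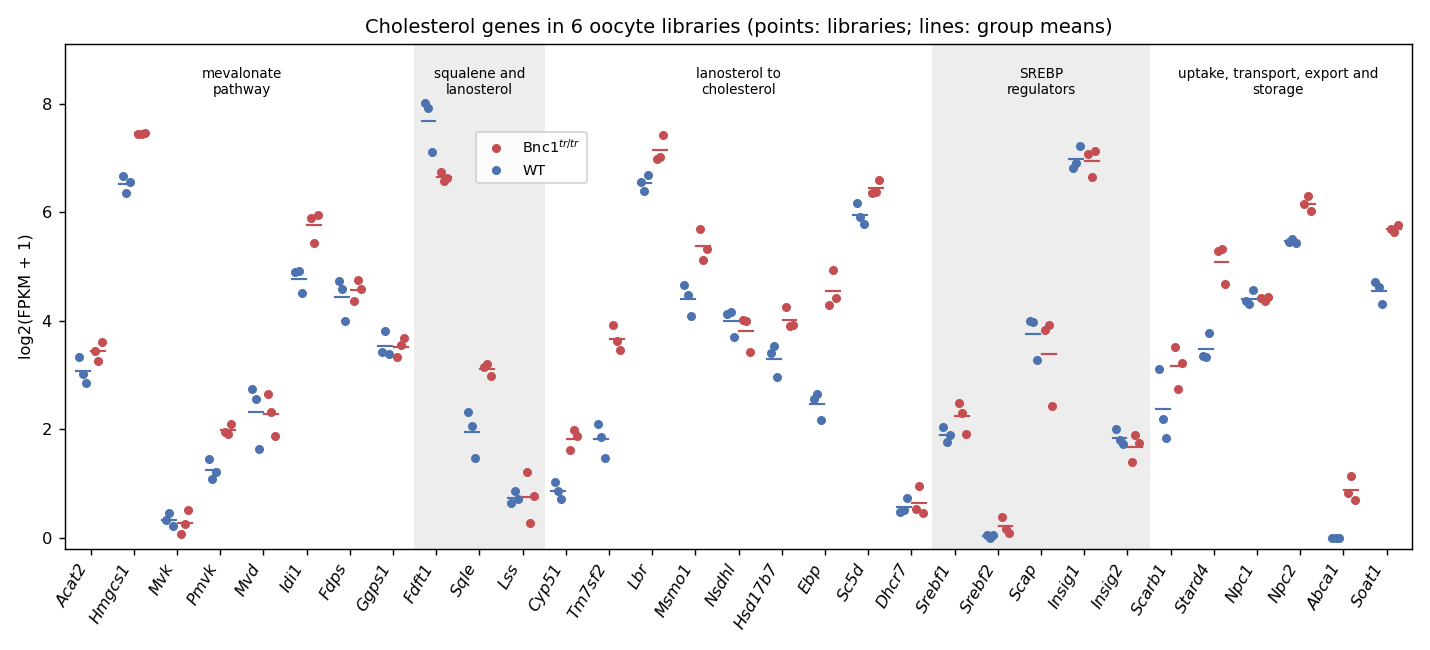
Level of each of the 31 genes as log2(FPKM + 1) in 6 libraries, by role, with WT in blue and Bnc1tr/tr in red. Points are libraries and short lines are group means. The red points lie above the blue ones for Ebp, Tm7sf2 and Stard4, below them for Fdft1, and among them for Insig1 and Npc1.

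FPKM is scaled by transcript length, so levels can also be ordered between genes. In WT oocytes *Fdft1* stood first of the 31 genes at 211 ± 64.9 FPKM (SD, n = 3), followed by *Insig1* at 126 ± 19.4, *Lbr* at 92.8 ± 9.58, *Hmgcs1* at 91.6 ± 10.3 and *Sc5d* at 61.5 ± 8.62 FPKM. *Fdft1* and *Insig1* overlapped between libraries, as did *Lbr* and *Hmgcs1*. In *Bnc1*tr/tr oocytes *Hmgcs1* stood first at 174 ± 1.41 FPKM, followed by *Lbr* at 142 ± 25.9, *Insig1* at 124 ± 21.4 and *Fdft1* at 99.6 ± 6.34 FPKM. There *Lbr* overlapped *Insig1*, and *Insig1* overlapped *Fdft1*. At the low end of the WT order were *Cyp51* at 0.837 ± 0.190, *Lss* at 0.677 ± 0.129, *Dhcr7* at 0.497 ± 0.151, *Mvk* at 0.263 ± 0.105 and *Srebf2* at 0.0267 ± 0.0231 FPKM, with *Abca1* listed at 0. The WT level of *Fdft1* was in the top 2.88% to 5.48% of listed genes, and that of *Hmgcs1* in the top 7.38% to 8.45%.

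Of the mevalonate enzymes, 7 of 8 were tested, 3 were higher and 4 were not called. The changed share of these 7 was 42.9%, near the 31.8% of all genes tested. The 3 were *Hmgcs1*, *Pmvk* and *Idi1*, and their log2 fold changes lay between 0.73 and 0.98. *Hmgcs1*, the cytosolic HMG-CoA synthase, was at 173.91, 173.21 and 175.92 FPKM in *Bnc1*tr/tr and at 100.71, 80.51 and 93.66 FPKM in WT. The *Bnc1*tr/tr libraries were close to each other and all above WT. The log2 fold change was 0.93 ± 0.16 (SE, 95% interval 0.56 to 1.29, adjusted p = 0.0026).

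*Idi1*, which isomerizes isopentenyl diphosphate, was at 58.09, 42.31 and 61.11 FPKM in *Bnc1*tr/tr and at 28.81, 29.23 and 21.77 FPKM in WT. Its groups did not overlap and the log2 fold change was 0.98 ± 0.20 (adjusted p = 0.0064). *Pmvk*, the phosphomevalonate kinase, was low in both groups, at 2.86, 2.76 and 3.27 FPKM in *Bnc1*tr/tr and 1.74, 1.12 and 1.33 FPKM in WT. Its log2 fold change was 0.73 ± 0.17 (adjusted p = 0.011), and it lost the call under quantile normalization (0.29, adjusted p = 0.23) and without WT replicate 2 (0.65, adjusted p = 0.057).

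Of the enzymes on either side of *Pmvk*, 1 was not called and 1 was not tested. *Mvd*, the mevalonate diphosphate decarboxylase, was at 5.27, 4 and 2.67 FPKM in *Bnc1*tr/tr and 5.68, 4.91 and 2.12 FPKM in WT, a log2 fold change of -0.03 with an interval from -0.74 to 0.67. *Mvk*, the mevalonate kinase, was not tested at 0.227 ± 0.191 and 0.263 ± 0.105 FPKM (SD, n = 3 each). *Acat2*, the cytosolic thiolase at the start, had 9.92 ± 1.30 and 7.47 ± 1.5 FPKM and a log2 fold change of 0.37 (adjusted p = 0.17). Of the distinct 31-base stretches of its transcripts, 43.7% also occur in other transcripts, chiefly those of *Acat3*, so its value is uncertain.

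The enzymes that make longer isoprenoids were not called. *Fdps*, the farnesyl diphosphate synthase, was at 19.54, 25.90 and 22.97 FPKM in *Bnc1*tr/tr and 25.43, 23.08 and 14.87 FPKM in WT, a log2 fold change of 0.13 (interval -0.38 to 0.64). *Ggps1*, which makes geranylgeranyl diphosphate for proteins and not for sterols, gave -0.02 (interval -0.44 to 0.40). The interval of *Fdps* reaches past the fold threshold and that of *Ggps1* stays inside it. *Fdps* shares 27.9%, *Idi1* 27.1%, *Ggps1* 14.9% and *Hmgcs1* 13.1% of such stretches with other transcripts.

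Of the squalene enzymes, *Fdft1* was lower and *Sqle* was higher. *Fdft1* was at 106.36, 93.81 and 98.55 FPKM in *Bnc1*tr/tr and at 255.87, 240.23 and 136.51 FPKM in WT. Every *Bnc1*tr/tr library was below every WT library, and WT replicate 3 lay closest to them. The log2 fold change was -1.02 ± 0.25 (interval -1.58 to -0.47, adjusted p = 0.013). Without WT replicate 2 it was -0.90 and no longer called (adjusted p = 0.052), and without WT replicate 3 it was -1.31 (adjusted p = 0.00069).

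*Fdft1* lies at chr14:63145150-63181687 on the minus strand of GRCm38.p6, and 18.3% of its exonic bases are overlapped on the other strand by *Ctsb*, which encodes cathepsin B. The library kit does not mark strand, so reads of the shared stretch cannot be told apart. Of its 31-base stretches, 31.9% also occur in other transcripts, namely *Ctsb* and *Gm6781*, so its value is uncertain too. *Ctsb* was at 99.12, 76.34 and 59.84 FPKM in *Bnc1*tr/tr and 65.72, 40.35 and 20.90 FPKM in WT. Its log2 fold change of 0.99 had the opposite sign to that of *Fdft1* and did not pass (adjusted p = 0.074).

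*Sqle*, the squalene epoxidase, was at 7.88, 8.19 and 6.94 FPKM in *Bnc1*tr/tr and at 3.96, 3.15 and 1.77 FPKM in WT. Its groups did not overlap, and the log2 fold change was 1.17 ± 0.23 (adjusted p = 0.0045). *Lss*, the lanosterol synthase that follows, was not tested at 1.31, 0.21 and 0.71 FPKM in *Bnc1*tr/tr and 0.57, 0.82 and 0.64 FPKM in WT. The ratio of *Fdft1* to *Sqle* within a library, which a single scaling factor per library cannot change, was 13.5, 11.5 and 14.2 in *Bnc1*tr/tr and 64.6, 76.3 and 77.1 in WT. The ratio of *Fdft1* to *Hmgcs1* was 0.612, 0.542 and 0.560 against 2.54, 2.98 and 1.46. These ratios were chosen after the values had been seen and carry no test.

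**Figure D2:**
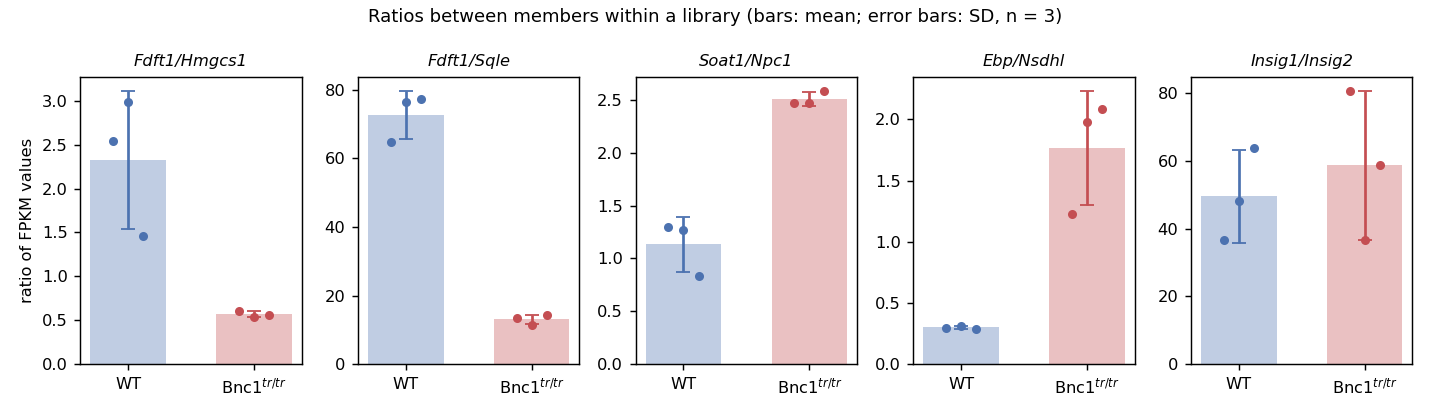
Ratios of FPKM values of pairs of genes within a library, with bars for group means, error bars for SD (n = 3) and points for libraries. Fdft1 to Sqle averaged 13.1 in Bnc1tr/tr and 72.7 in WT, and Ebp to Nsdhl averaged 1.77 and 0.3, while Insig1 to Insig2 overlapped between the groups.

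From lanosterol to cholesterol, 8 of 9 enzymes were tested, 6 were higher and 2 were not called, with a median log2 fold change of 0.84. The changed share of these 8 was 75%, against 31.8% of all genes tested. *Ebp*, the sterol isomerase also known as emopamil binding protein, was at 18.52, 29.76 and 20.36 FPKM in *Bnc1*tr/tr and at 4.92, 5.25 and 3.48 FPKM in WT. The lowest *Bnc1*tr/tr library was more than 3 times the highest WT library. The log2 fold change was 2.09 ± 0.22 (interval 1.58 to 2.60, adjusted p = 0.00017), or 1.95 above the median of all genes tested. Its sequence shares no 31-base stretch with another gene, and its promoter is printed above.

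*Cyp51* and the pair of reductases that can act on its product were all higher. *Cyp51* was at 2.06, 2.97 and 2.68 FPKM in *Bnc1*tr/tr and at 1.03, 0.83 and 0.65 FPKM in WT, a log2 fold change of 0.96 ± 0.18 (adjusted p = 0.0034). It lost the call under quantile normalization (0.48, adjusted p = 0.070). *Tm7sf2*, the reductase of the endoplasmic reticulum, was at 14.20, 11.35 and 9.98 FPKM against 3.30, 2.64 and 1.79 FPKM, a log2 fold change of 1.85 ± 0.21 (adjusted p = 0.00025).

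*Lbr*, the lamin B receptor, carries the same reductase activity at the inner nuclear membrane. It was at 125.16, 128.54 and 171.54 FPKM in *Bnc1*tr/tr and at 93.46, 82.86 and 101.98 FPKM in WT, with a log2 fold change of 0.60 ± 0.19 (adjusted p = 0.038). The 2 genes differed in level, since *Lbr* held 92.8 ± 9.58 FPKM and *Tm7sf2* 2.58 ± 0.757 FPKM in WT. The *Lbr* call was lost in 9 of 15 alternatives, among them upper-quartile scaling (0.32, adjusted p = 0.25). The *Tm7sf2* call was lost in none of 15, but 13.3% of its 31-base stretches occur in other transcripts, chiefly *Vps51*, which lies upstream on the same strand. *Vps51*, a gene of endosomal traffic, was itself at 3.97, 2.45 and 1.60 FPKM in *Bnc1*tr/tr and 0.97, 0.88 and 0.54 FPKM in WT.

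Of the enzymes that remove the methyl groups of the ring, *Msmo1* and *Hsd17b7* were higher and *Nsdhl* was not called. *Msmo1*, the methylsterol oxidase, was at 50.62, 33.71 and 38.84 FPKM in *Bnc1*tr/tr and 24.25, 21.37 and 15.98 FPKM in WT, a log2 fold change of 0.97 ± 0.22 (adjusted p = 0.0096). *Hsd17b7*, the ketoreductase, was at 18.10, 13.91 and 14.08 FPKM against 9.57, 10.66 and 6.81 FPKM, a log2 fold change of 0.72 ± 0.20 (adjusted p = 0.026). Its call was lost in 7 of 15 alternatives, among them the 3 other scalings, where it was 0.45 to 0.52.

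*Nsdhl*, the sterol dehydrogenase of the same step, was at 15.08, 15.04 and 9.75 FPKM in *Bnc1*tr/tr and 16.44, 16.83 and 12.01 FPKM in WT. Its log2 fold change was -0.18 (interval -0.68 to 0.32), and replicate 3 was the lowest library of each group. The ratio of *Ebp* to *Nsdhl*, both on the X chromosome, was 1.23, 1.98 and 2.09 in *Bnc1*tr/tr and 0.299, 0.312 and 0.290 in WT.

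The last steps were not called. *Sc5d*, the sterol desaturase, was at 81.03, 82.15 and 95.59 FPKM in *Bnc1*tr/tr and 70.99, 59.17 and 54.20 FPKM in WT. Its groups did not overlap, but the log2 fold change of 0.49 (interval 0.09 to 0.88) missed both thresholds (adjusted p = 0.061). *Dhcr7*, the final reductase, was not tested at 0.44, 0.93 and 0.38 FPKM in *Bnc1*tr/tr and 0.39, 0.43 and 0.67 FPKM in WT.

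**Figure D3:**
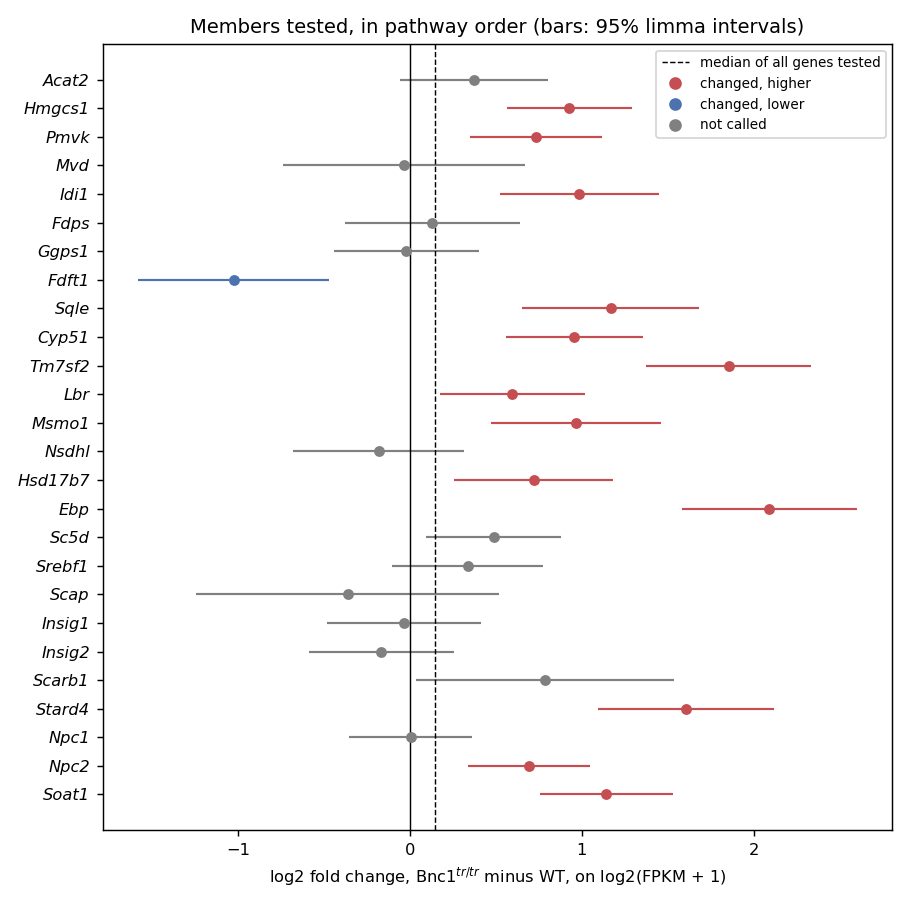
Log2 fold change of Bnc1tr/tr over WT on log2(FPKM + 1) for the 26 genes tested, in pathway order, with 95% limma intervals. Red marks higher, blue lower and grey genes that were not called, and the dashed line is the median of all genes tested, 0.15. Fdft1 at -1.02 stands alone on the left, with Ebp at 2.09, Tm7sf2 at 1.85 and Stard4 at 1.61 on the right.

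Of the 5 regulators of SREBP, 4 were tested and none was called by limma, 0 of them having an unadjusted p under 0.05. A list of 4 is too small to set this count apart from the 31.8% of all genes tested that were changed. The median log2 fold change was -0.10. The retention factor *Insig1* was among the most abundant genes of the list, at 132.88, 99.02 and 138.70 FPKM in *Bnc1*tr/tr and 111.54, 118.51 and 148.12 FPKM in WT. Its groups overlapped and the log2 fold change was -0.03 (interval -0.48 to 0.41). *Insig2* was at 1.65, 2.70 and 2.36 FPKM against 3.04, 2.47 and 2.32 FPKM, with -0.17 (interval -0.59 to 0.25). It was called lower under quantile normalization (-0.61, adjusted p = 0.039).

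*Scap*, the SREBP escort, was at 13.14, 14.09 and 4.36 FPKM in *Bnc1*tr/tr and 14.95, 14.71 and 8.70 FPKM in WT, with replicate 3 low in each group. It shares 11.3% of its 31-base stretches with an antisense transcript. Its log2 fold change was -0.36 and its interval of -1.24 to 0.52 was the widest of the 26. *Srebf1* was at 4.62, 3.95 and 2.79 FPKM against 3.13, 2.40 and 2.73 FPKM, with 0.34 (interval -0.10 to 0.78, adjusted p = 0.22). *Srebf2*, the SREBP gene most tied to cholesterol enzymes, was not tested. It was at 0.30, 0.12 and 0.07 FPKM in *Bnc1*tr/tr and 0.04, 0 and 0.04 FPKM in WT, where 3 fragments on 1 kb of effective length equal 0.138 to 0.227 FPKM by an estimate of depth from the steps of low values.

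Among genes of uptake, transport, export and storage, 5 of 6 were tested, 3 were higher and 2 were not called. The changed share of these 5 was 60%, against 31.8% of all genes tested. *Stard4*, a cytosolic sterol carrier, was at 37.82, 38.85 and 24.56 FPKM in *Bnc1*tr/tr and 9.21, 9.02 and 12.73 FPKM in WT. Its groups did not overlap and the log2 fold change was 1.61 ± 0.23 (adjusted p = 0.00081). *Soat1*, which esterifies cholesterol for storage, was at 50.50, 48.54 and 53.71 FPKM against 25.34, 23.71 and 18.90 FPKM, a log2 fold change of 1.14 ± 0.17 (adjusted p = 0.0012).

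Of the lysosomal pair that releases cholesterol from endocytosed lipoprotein, *Npc2* was higher and *Npc1* was not called, and the difference between them was not tested. *Npc2*, the soluble carrier, was at 69.95, 77.25 and 64.11 FPKM in *Bnc1*tr/tr and 42.73, 44.24 and 42.35 FPKM in WT, a log2 fold change of 0.69 ± 0.16 (adjusted p = 0.0099). *Npc1*, the membrane protein that receives its cargo, was at 20.45, 19.66 and 20.78 FPKM against 19.50, 18.71 and 22.65 FPKM. That was a log2 fold change of 0.00 with an interval from -0.35 to 0.36. The call of *Npc2* was lost under upper-quartile scaling (0.42, adjusted p = 0.072) and median-ratio scaling (0.47, adjusted p = 0.049, below the fold threshold). The ratio of *Soat1* to *Npc1* was 2.47, 2.47 and 2.58 in *Bnc1*tr/tr and 1.30, 1.27 and 0.834 in WT.

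*Scarb1*, the receptor that takes up cholesterol from high-density lipoprotein, was at 10.44, 5.72 and 8.32 FPKM in *Bnc1*tr/tr and 7.63, 3.55 and 2.57 FPKM in WT. Its groups overlapped through WT replicate 1, and the log2 fold change of 0.78 (interval 0.04 to 1.53) was not called (adjusted p = 0.10). Without WT replicate 1 it was 1.15 (adjusted p = 0.012). *Abca1*, the cholesterol exporter and a target of liver X receptor, was at 0.78, 1.2 and 0.63 FPKM in *Bnc1*tr/tr and was listed at 0 in the 3 WT libraries. It stayed out of the test for its low mean, so no fold is given, and without the filter it was called higher (adjusted p = 0.0066).

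All direction counts depended in part on how libraries were scaled. As deposited, 75.8% of the changed genes of the whole table were higher in *Bnc1*tr/tr, and this share was 50.1% with upper quartiles made equal, 55.4% by median ratios and 46.6% with quantiles made equal. The median log2 fold change of all genes moved from 0.15 to between -0.10 and -0.05. The median of the 26 genes moved from 0.64 to between 0.37 and 0.43, and 10 of them were called higher under each of the 3 scalings, against 15.5% to 18.3% of all genes tested. *Fdft1* was lower under each. FPKM is a share of a library, so a fall in one set of transcripts and a rise in the others cannot be told apart.

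Genes linked to cholesterol that are not in the list of 31 were also counted, from lists of 70 genes of which 69 were listed in the files. Of these 49 were tested, 15 were higher and 2 lower. That is 34.7%, close to the 31.8% of all genes tested that were changed, with 24.1% higher and 7.68% lower. Of 14 tested genes in the isoprenoid branches 2 were higher, *Coq2* of ubiquinone synthesis, with a log2 fold change of 0.95 (adjusted p = 0.0079), and *Nus1* of dolichol synthesis, with 0.53 (adjusted p = 0.040). The median of this list was 0.09. Of 11 tested genes of SREBP processing and turnover 4 were higher. *Mbtps2*, the intramembrane protease that releases SREBP, rose from 5.94 ± 1.97 to 10.5 ± 0.505 FPKM (SD, n = 3, log2 fold change 0.77, adjusted p = 0.024). *Erlin1*, of a membrane complex that takes part in the turnover of sterol-regulated proteins, had a log2 fold change of 0.93 (adjusted p = 0.0058), and *Faf2*, an adaptor of protein extraction from the endoplasmic reticulum, one of 0.90 (adjusted p = 0.018).

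Fatty acid genes that SREBP also drives were mostly low. Of 11, 8 were under the filter and 1 of the 3 tested was called. *Fads2*, a fatty acid desaturase, was at 16.34, 12.34 and 12.95 FPKM in *Bnc1*tr/tr and was listed at 0 in the 3 WT libraries. Of the genes under the filter, *Acss2*, *Fasn*, *Scd2*, *Elovl6*, *Fads1* and *Gpam* were higher in *Bnc1*tr/tr without overlap between the groups. Their group means were all 0.72 FPKM or less. *Acaca* and *Scd1* overlapped.

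Of the 6 tested genes of liver X receptor and its targets, 3 were higher and 1 was lower. That is 66.7% changed, against 31.8% of all genes tested. *Nr1h3*, which encodes liver X receptor alpha, was at 4.58, 7.29 and 5.48 FPKM in *Bnc1*tr/tr and 1.23, 1.11 and 0.73 FPKM in WT (log2 fold change 1.73 ± 0.20, adjusted p = 0.00026). *Apoe*, an apolipoprotein, was at 34.46, 60.78 and 18.51 FPKM against 11.65, 11.55 and 9.15 FPKM (1.58 ± 0.36, adjusted p = 0.010). *Abcg1*, a sterol exporter, was lower at 13.7 ± 1.07 against 23.0 ± 2.62 FPKM (-0.70, adjusted p = 0.012).

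Of 12 tested genes of lipoprotein receptors and sterol traffic, 5 were higher and 1 was lower, with a median of 0.40. That is 50% changed, against 31.8% of all genes tested. *Osbpl2*, an oxysterol-binding protein family member, was at 59.20, 58.77 and 36.91 FPKM in *Bnc1*tr/tr and 9.54, 7.76 and 6.52 FPKM in WT (log2 fold change 2.54 ± 0.23, adjusted p = 6.3e-05), more than any of the 26 genes. *Cd36*, a scavenger receptor for fatty acids and modified lipoprotein, was at 104 ± 7.51 against 46.2 ± 4.28 FPKM (1.16, adjusted p = 0.00076). *Osbpl8* was higher by 0.58 (adjusted p = 0.031). *Lrpap1*, a chaperone of lipoprotein receptors, was lower (-0.70, adjusted p = 0.031). None of 3 tested oxysterol enzymes was called by limma, and 0 had an unadjusted p under 0.05.

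**Figure D4:**
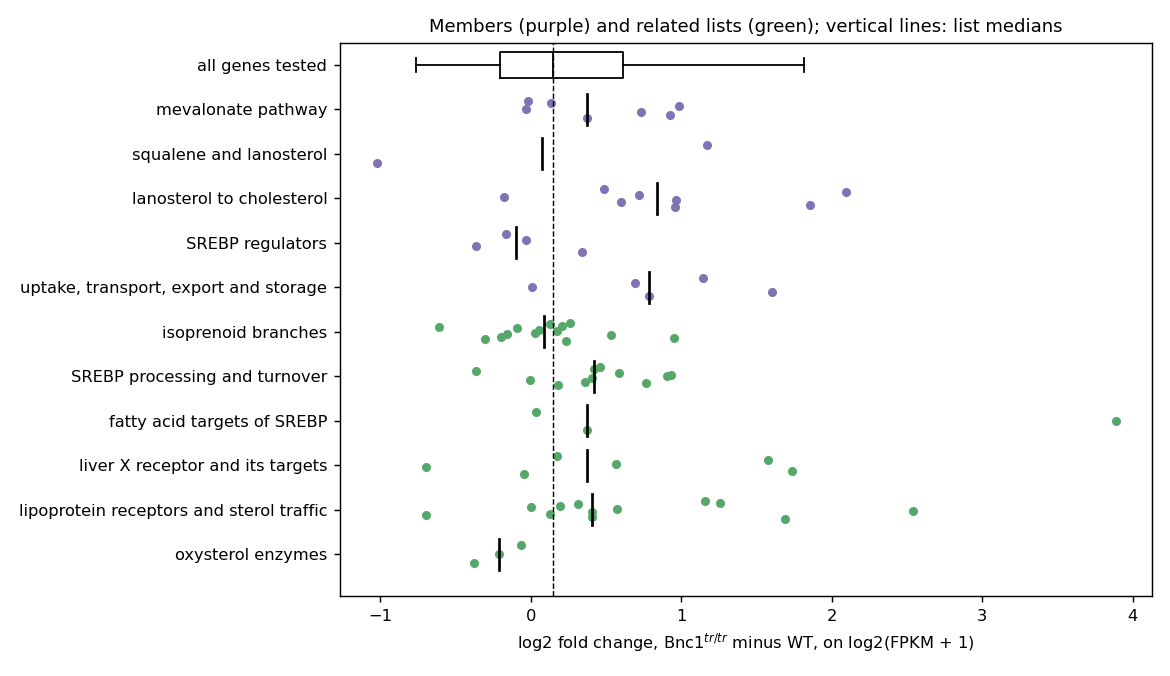
Log2 fold change of Bnc1tr/tr over WT for each tested gene of the 31, by role (purple), and of related lists (green). The box shows the quartiles of all 10560 genes tested with whiskers from the 5th to the 95th percentile, the dashed line their median and short lines the list medians. SREBP regulators have a median of -0.10 and run from -0.36 to 0.34. Enzymes from lanosterol to cholesterol have a median of 0.84 and run from -0.18 to 2.09.

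The oocyte label and the other cells a library could hold were checked by marker lists. Over all genes tested, 24.1% were higher and 7.68% lower. Summed FPKM of 13 oocyte markers was 16058 to 17404 in *Bnc1*tr/tr and 18116 to 19657 in WT (exact two-sided permutation p = 0.10, the smallest that 3 against 3 allows), with 1 gene higher and 2 lower of 13. *Dppa3* was the largest part, at 8067 of a mean sum of 18943 FPKM in WT and 6310 of 16651 FPKM in *Bnc1*tr/tr. Its groups overlapped and it was not called (limma adjusted p = 0.38). Summed granulosa and cumulus markers, with 17 of 20 listed and 3 of 7 tested higher, were 363 to 428 against 200.5 to 328 FPKM (exact p = 0.10). Most of this was *Serpine2* and *Cyp19a1*, and without them, a choice made after their levels were seen, the ranges were 18.3 to 23.2 and 6.28 to 16.9 FPKM. The 3 higher genes were *Fshr*, at 4.54, 5.83 and 5.37 FPKM against 0.31, 0.74 and 0 FPKM, *Cyp11a1*, at 5.63 ± 0.405 against 1.26 ± 0.816 FPKM, and *Kitl*, at 2.46 ± 0.590 against 1.14 ± 0.0321 FPKM (SD, n = 3 each). Of other defining markers, *Foxl2*, *Lhcgr* and *Slc38a3* were listed at 0 in all *Bnc1*tr/tr libraries and at 0.14 FPKM or less in every WT library. *Inha*, tested and not called, went the other way, at 0.18, 1.81 and 0.09 FPKM against 6.78, 3.45 and 0.04 FPKM. *Hsd17b1* (mean 0.197 against 0.787 FPKM) and *Fst* (0.0533 against 0.257 FPKM), not tested, had lower means too, with overlapping groups. A difference in the number of follicle cells and a difference in RNA per cell cannot be told apart in such libraries.

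Surface epithelium markers, 4 of 4 tested higher, summed to 10.6 to 37.2 FPKM in *Bnc1*tr/tr and 0.95 to 1.88 FPKM in WT, led by *Krt8* at 22.79, 6.05 and 6.17 against 1.05, 0.27 and 0.09 FPKM. Theca and stroma markers, 1 of 1 tested higher, summed to 5.91 to 9.76 against 1.40 to 2.09 FPKM, with *Col1a1* at or near 0. The higher gene was *Dcn*, at 6.11 ± 1.05 against 1.62 ± 0.352 FPKM, and *Pdgfra* (0.503 against 0.06 FPKM) and *Lum* (1.06 FPKM against 0 in WT), which were not tested, did not overlap between the groups either. Endothelial markers, 1 of 2 tested lower, summed to 5.44 to 8.17 against 10.2 to 11.7 FPKM, with *Cdh5* at or near 0. The lower gene was *Pecam1*, at 4.01 ± 1.01 against 9.11 ± 1.35 FPKM, whereas *Kdr*, not tested, was at 1.54, 0.64 and 0.53 FPKM in *Bnc1*tr/tr and 0.10, 0.12 and 0.07 FPKM in WT. Immune markers, none of 3 tested called by limma and 1 with an unadjusted p under 0.05, summed to 61.3 to 125 against 66.2 to 97.3 FPKM, mostly *C1qb*, and without it to 2.62 to 54.6 against 1.39 to 3 FPKM. *Lyz2*, a macrophage gene, was at 5.81 and 47.97 FPKM in *Bnc1*tr/tr replicates 1 and 2 and listed at 0 in replicate 3 and in WT. Of genes not tested, *C1qa* was at 1.39, 1.66 and 0.61 FPKM in *Bnc1*tr/tr and *Cd3e* at 0.31, 0.24 and 0.67 FPKM, both listed at 0 in WT. *Adgre1* and *Itgam*, at 0.15 FPKM or less, did not overlap between the groups either. The remaining immune markers did not separate the groups. For comparison, the 20 enzymes of the list summed to 719, 688 and 759 FPKM in *Bnc1*tr/tr and 666, 604 and 486 FPKM in WT. The part of these markers in the cholesterol results was not tested.

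*Bnc1*tr/tr replicate 3 had the lowest immune and surface epithelium sums of its group. Set alone against the 3 WT libraries, it gave log2 fold changes of 1.96 for *Ebp*, 1.64 for *Tm7sf2*, 1.22 for *Soat1*, 1.19 for *Stard4*, 1.18 for *Idi1*, 0.94 for *Hmgcs1* and -1.04 for *Fdft1*, against 2.09, 1.85, 1.14, 1.61, 0.98, 0.93 and -1.02 with all libraries. This comparison was chosen after the marker values had been seen, and its spread comes from WT alone. Its signs were fixed beforehand, since the groups of these genes do not overlap. In *Bnc1*tr/tr replicate 3 the surface epithelium sum was still 10.6 FPKM, above the WT maximum of 1.88 FPKM. The theca and stroma sum was 5.91 FPKM, above the WT maximum of 2.09 FPKM. The granulosa and cumulus sum was 380 FPKM, above the WT maximum of 328 FPKM. WT replicate 3 was the lowest WT library for 19 of the 26 genes (73.1%), against 49.5% of all genes tested. Without it, 13 genes were called higher and 1 lower, as with it, against 24.1% and 9.75% of all genes tested.

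**Figure D5:**
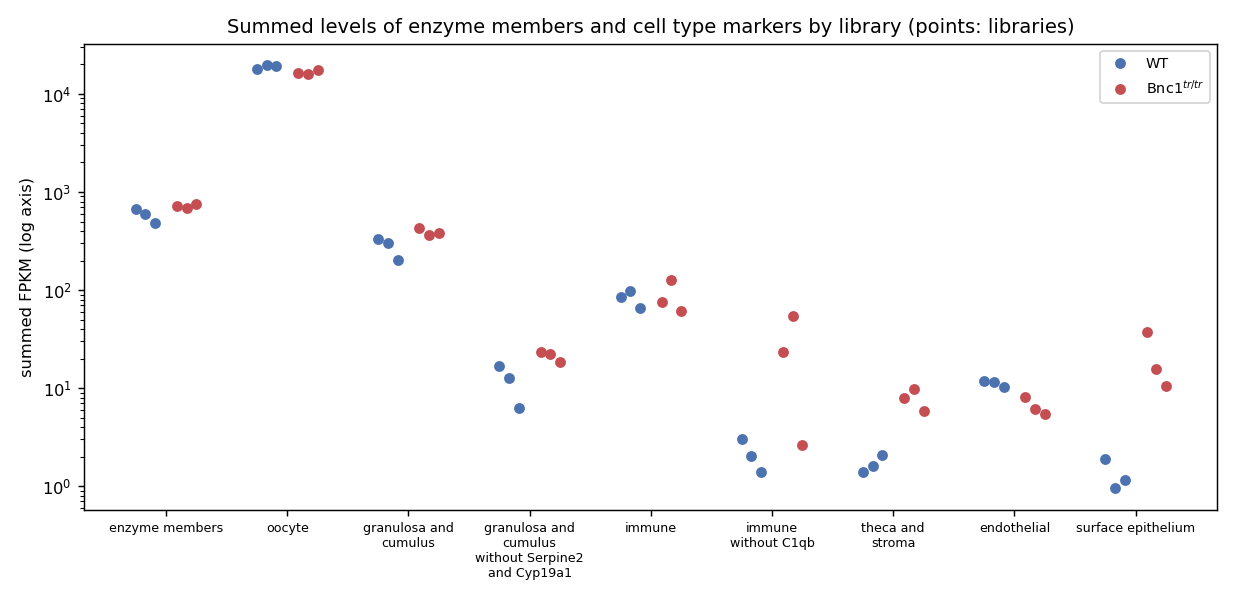
Summed FPKM, on a log axis, of the 20 cholesterol enzymes and of cell type markers in each library, with WT in blue and Bnc1tr/tr in red. The oocyte sum is at least 16058 in every library, and the surface epithelium sum lies between 10.6 and 37.2 in Bnc1tr/tr and at 1.88 or lower in WT.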

How the data were processed

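Per the study's methods, polyadenylated RNA was amplified by Smart-seq2 and libraries were made with a transposase kit that does not mark strand and has no molecular identifiers. The deposited values are FPKM per gene that the authors made, 1 file per library. The submitters' processing notes name HISAT2 2.0.4, Bowtie2 2.2.5, RSEM 1.2.12 and GRCm38.p6, and the annotation is not given in the sources used here. FPKM removes depth and length but stays relative to each library's composition.

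Libraries were grouped by the genotype label. FPKM totals were 657550 to 724550, and genes above 0 numbered 15258 to 15736 in *Bnc1*tr/tr and 13896 to 14576 in WT. Steps between low values put the depth at about 13.2 to 21.7 M fragments (M, mega), an estimate used in no test. FPKM files hold no counts, so no counting intervals are given.

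A pseudocount of 1 was added, genes averaging 1 FPKM or more were kept, and log2 values were tested with limma 3.58.1 in R 4.3.3 with Benjamini-Hochberg adjustment. A fold change on this scale understates that of low genes. For summed markers an exact permutation test was used, two-sided. Positions, shared 31-base stretches and overlaps came from RefSeq and GENCODE M21 on the same build. Figures used matplotlib 3.10.9 in Python 3.11.15.

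The 31 genes, the related lists and the marker lists were chosen with earlier results of these data known. All 31 genes were named, and related genes were named where they were changed with a mean of at least 5 FPKM in a group. Sequences were to be shown for up to 4 changed genes with the largest fold changes at that level. *Hmgcs1* was added outside this rule, and *Tm7sf2* and *Idi1* were left out. Alternatives were another pseudocount, other filters and thresholds, 3 scalings, limma with trend and robust variances, a replicate block and leaving out each library.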

Additional observations from a re-analysis of the deposited data

How the results depend on the processing

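Of 390 values of the 31 genes under alternatives, 330 kept their direction and their side of the thresholds, 32 lost and 5 gained a call and 23 changed sign. The 5 untested genes enter only through the fit without the filter, where *Abca1* gained a call. None of the 14 changed genes changed sign under any alternative run, and *Tm7sf2* and *Ebp* kept their call in all 15. The groups of those 14 genes do not overlap, so only the 3 scalings could have changed a sign. The 13 higher genes became 5 with an absolute log2 fold change over 1, where 13.4% of all genes were higher. Leaving out each library in turn gave 11 to 14 higher genes, where 18.0% to 24.1% of all genes tested were higher. The single lower gene became 2 under quantile normalization, which added *Insig2*, and there 17.8% of all genes tested were lower. The count of lower genes ranged from 0 to 1 when each library was left out, with 0 without WT replicate 2. In those fits 3.92% to 9.75% of all genes tested were lower. *Bnc1*tr/tr replicate 3 alone against WT gave 2 higher and 0 lower calls, but there the lone library is assumed to vary like WT, which alone gives the spread, so these counts say nothing about stability. The 12 genes without a call had log2 fold changes of 0.56 to 1.22 or, for *Fdft1*, -1.04. Their signs were fixed beforehand, since the groups of all 14 genes do not overlap. The signs of genes that were not called moved with scaling. *Fdps* was -0.13, -0.080 and -0.076 and *Npc1* -0.26, -0.21 and -0.20 after upper-quartile, median-ratio and quantile scaling, and *Srebf1* was -0.088 after the last. With *Bnc1*tr/tr replicate 3 alone, *Ggps1* was 0.15 and *Insig1* 0.15. Over the fits that left out 1 library, ranges were -0.37 to 0.18 for *Mvd*, -0.093 to 0.28 for *Fdps*, -0.10 to 0.11 for *Ggps1*, -0.33 to 0.011 for *Nsdhl*, -0.63 to 0.12 for *Scap*, -0.12 to 0.12 for *Insig1* and -0.048 to 0.083 for *Npc1*. The difference in summed immune markers was -11.3 FPKM after upper-quartile and -7.81 FPKM after median-ratio scaling, and -14.2 to 17.7 FPKM when a library was left out. The causes were not tested.

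Same-numbered libraries deviated from their group means with correlations of 0.28, -0.03 and 0.12. For libraries with different numbers the correlations ranged from -0.25 to 0.16. Deviations within a group depend on each other, so these values cannot decide whether the numbers pair the samples. The paper reports comparing mice within litters, but no label ties a library to a litter. With a replicate block, 14 genes were higher and 1 lower, the addition being *Scarb1* (0.78, adjusted p = 0.027). In that fit 3733 genes of the whole table were changed against 3358, with 26.3% of all genes tested higher and 9.02% lower. Values under about 0.2 FPKM rest on a few fragments per kilobase, which limits *Srebf2* most.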
